A study of Mus musculus with 8 samples.

Results

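The mitochondrial ribosomal protein genes of mouse liver are described here in livers that lacked the splicing factor RBFOX2 in hepatocytes (LΔRbfox2, labelled Rbfox2 knockout) and in their controls (LWT, labelled wild-type). Members were the protein-coding genes whose GRCm38 symbol begins with Mrpl or Mrps followed by a number. This gave 78 of the 46078 gene identifiers with counts, of which 77 were among the 13856 genes with enough counts to test. By the place of their protein, 51 belong to the large subunit, 26 to the small subunit, and *Mrps36* to neither. Another 5 genes with such symbols are annotated as pseudogenes and were left out.

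RNA-seq of poly(A)-enriched RNA was available from 8 livers, 4 of each genotype, with 1 library per liver. All mice carried *Rbfox2* alleles flanked by LoxP sites and male mice were used. LΔRbfox2 mice also carried Cre driven by the albumin promoter, which acts in hepatocytes, so other liver cells keep the gene. LWT mice lacked Cre. Mice entered the study at 8 weeks of age and were fed control chow (CD) for 12 weeks according to the sample labels, whereas the methods give a longer time. All were fasted for 16 h before the liver was taken.

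Mitochondria carry their own ribosome, the mitoribosome, which translates the few mRNAs of the mitochondrial genome. These mRNAs code for core subunits of the respiratory chain and of ATP synthase. The RNA of the mitoribosome is transcribed inside the organelle, but all its proteins are made from nuclear genes in the cytosol and imported. Many of the proteins descend from bacterial ribosomal proteins, and others were added during the evolution of mitochondria. Hepatocytes are rich in mitochondria, which carry out fatty acid oxidation, ketogenesis and part of the urea cycle in the fasted liver.

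Total counts per liver lay between 37482458 and 56177588, with a median of 42589090. Values are given as CPM, counts relative to library size after scaling by TMM factors, which correct for the makeup of each library. These factors were 0.724 and 0.7758 in LΔRbfox2 livers 3 and 4, and between 1.022 and 1.141 in the other 6. *Rbfox2* itself was at 17.1, 10.4, 11.4 and 18.3 CPM in LWT livers 1 to 4 and at 4.61, 6.09, 2.24 and 3.19 CPM in LΔRbfox2 livers 1 to 4. All LΔRbfox2 livers therefore lay under all LWT livers (two-sided exact permutation test on log2 values, *P* = 0.0286, the smallest that 4 against 4 allows). Its fitted log2 fold change came to −1.82 (standard error 0.32), and its adjusted *P* was 0.504 by edgeR and 0.00023 by DESeq2. The hepatocyte markers *Alb*, *Apoa1*, *Ttr*, *Hnf4a*, *Cps1* and *Ass1* were all expressed, whereas the muscle markers *Ckm* and *Acta1* were at or near 0.

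Of the 77 mitochondrial ribosomal protein genes tested, 74 had a higher fitted level in LΔRbfox2 livers, and none passed the test for a difference. The log2 fold change of LΔRbfox2 over LWT had a median of 0.54, with quartiles of 0.34 and 0.74 and a range from −0.055 to 1.1. Over all genes tested the median was −0.015, and 48.4% were above 0. With edgeR's quasi-likelihood test and Benjamini–Hochberg adjustment, 0 members had an adjusted *P* of at most 0.05, as did 0% of all genes. The smallest adjusted *P* among the members was 0.504. Limma-voom also called 0 members, and DESeq2 called 0 members and 10 of 13844 genes (0.0722%), with a smallest adjusted *P* among the members of 0.361.

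At an unadjusted *P* under 0.05 by edgeR, 27 members (35.1%) were higher in LΔRbfox2 livers and 0 were lower. Among all genes tested, 7.95% were higher and 1.83% lower by the same rule. In 0 of the 77 members did the 4 livers of each genotype separate without overlap, where 1.05% of all genes separated with LΔRbfox2 higher and 1.23% with LΔRbfox2 lower. The members thus shared a direction in the fitted values while each of them overlapped between genotypes. These are values of whole liver, in which a change in the number of cells of a type and a change in RNA per cell cannot be told apart.

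**Figure D1:**
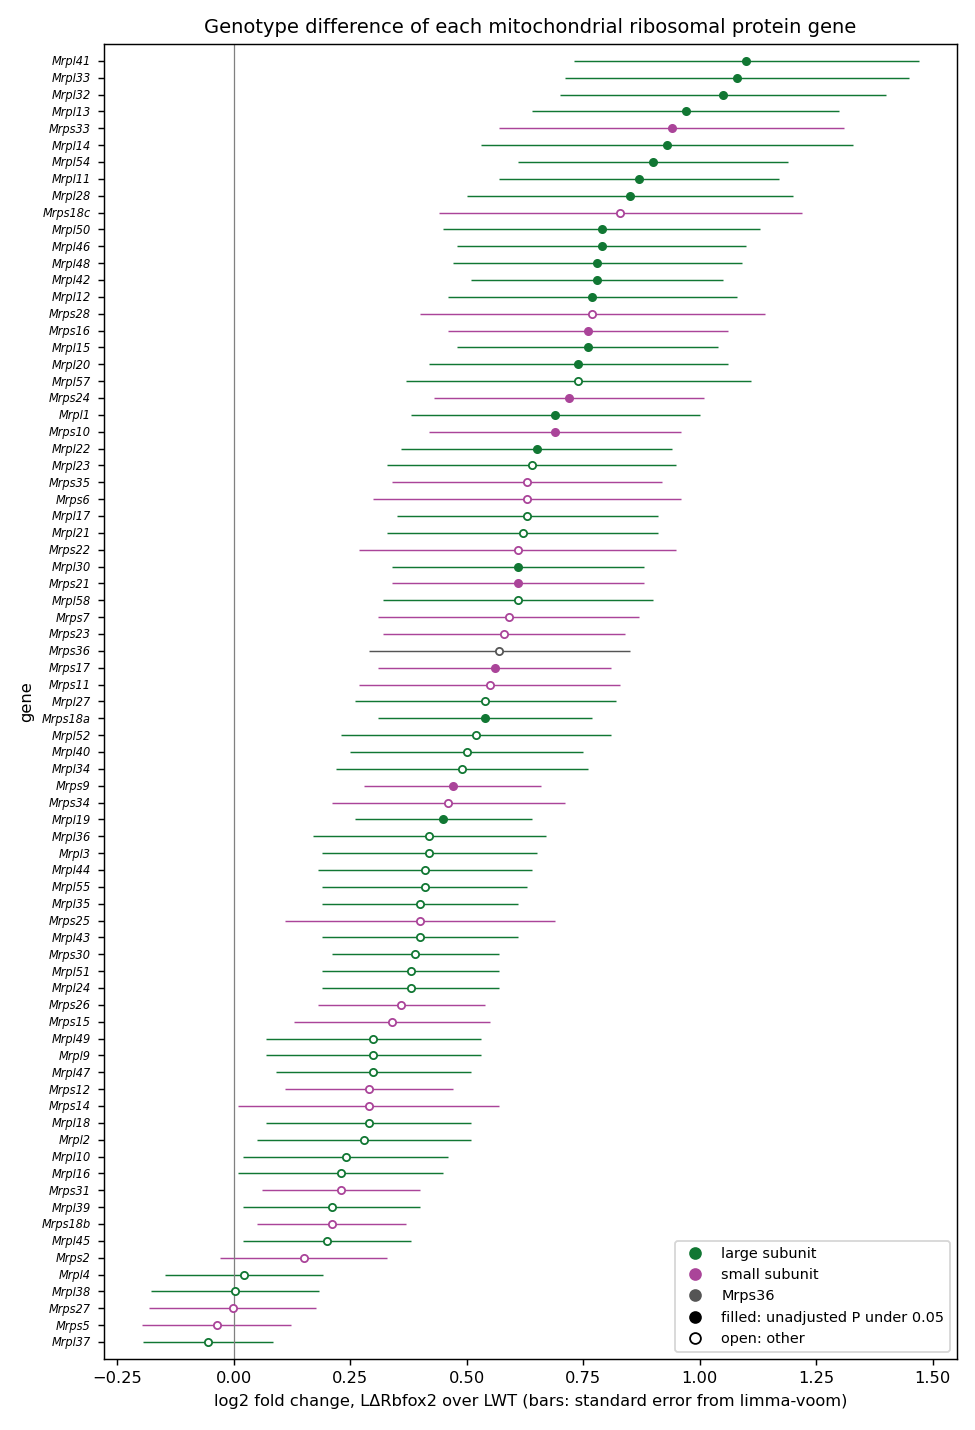
Log2 fold change of LΔRbfox2 over LWT for each of the 77 tested genes (x axis), sorted by size, with bars for the standard error from limma-voom and colours for the subunit. Filled points mark the 27 genes with an unadjusted *P* under 0.05 by edgeR; the values run from −0.055 for *Mrpl37* to 1.1 for *Mrpl41*, and 74 lie above 0.

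The overlap had a regular form over the livers. Averaged over the 77 members, log2 CPM was 3.64, 4.34, 3.92 and 3.62 in LWT livers 1 to 4. In LΔRbfox2 livers 1 to 4 it was 4.37, 3.83, 4.59 and 4.77. The means were 3.88 ± 0.34 and 4.39 ± 0.41 (SD, n = 4 each), a difference of 0.51 that is little more than the SD between livers of 1 genotype. LWT livers 1 and 4 were low and LΔRbfox2 livers 3 and 4 were high, but LWT liver 2 was level with LΔRbfox2 liver 1, and LΔRbfox2 liver 2 lay below LWT liver 3.

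Nearly all members followed this order. LWT liver 4 was the lowest of the 8 livers for 36 members and LWT liver 1 for 32. LΔRbfox2 liver 4 was the highest for 56 members and LΔRbfox2 liver 3 for 16. Within the LWT genotype, liver 2 was the highest for 74 members. Within LΔRbfox2, liver 2 was the lowest for 71. The same 2 livers that break the genotype order therefore do so for almost the whole family.

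**Figure D2:**
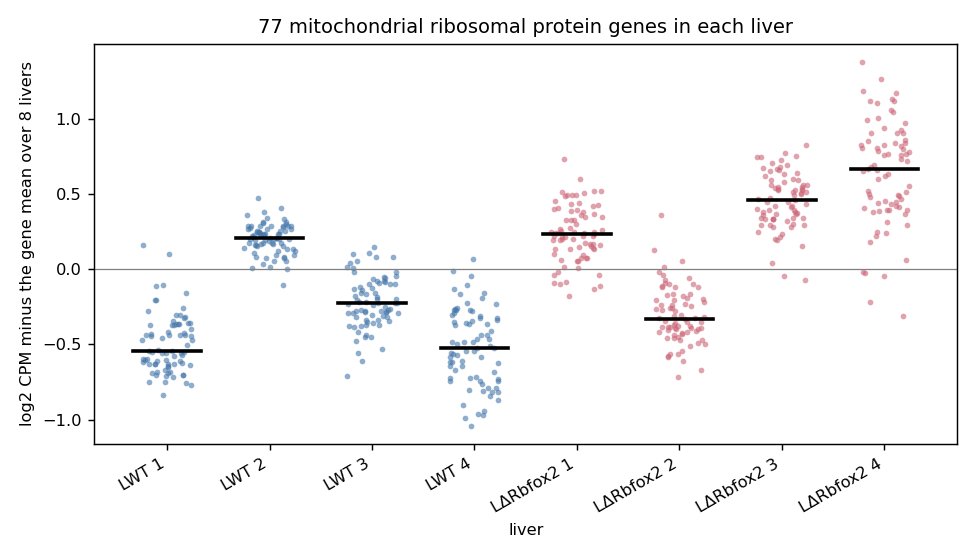
Log2 CPM of each of the 77 tested genes minus that gene's mean over the 8 livers (y axis), by liver (x axis), with 1 point per gene and a black line at the median. The medians are −0.54, 0.21, −0.23 and −0.52 in LWT livers 1 to 4 and 0.23, −0.33, 0.46 and 0.67 in LΔRbfox2 livers 1 to 4.

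Pairs of members were correlated over the 8 livers with a median *r* of 0.93 across 2926 pairs. This is a description, since all pairs share the same libraries and the same scaling. All genes tested had a median *r* of −0.08 with the mean of the members, a signed median in which values of opposite sign offset each other. The liver order was not particular to the family. The main axis of variation over all genes tested (first principal component) held 54.1% of the variance. Its scores were −0.5, 0.23, 0.03 and −0.46 in LWT livers 1 to 4 and 0.13, −0.30, 0.39 and 0.47 in LΔRbfox2 livers. This is nearly the order of the livers in the members. A few members stood outside the pattern. *Mrps5* had an *r* of −0.31 with the mean of the other members, *Mrps2* of −0.1, *Mrpl37* of −0.07, *Mrpl4* of 0.4 and *Mrps27* of 0.66.

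In the large subunit, 49 of 50 tested genes had a log2 fold change above 0, with a median of 0.53. At an unadjusted *P* under 0.05, 20 (40%) were higher, against 7.95% of all genes. *Mrpl54*, on chromosome 10 of GRCm38 from 81264713 to 81266934 on the minus strand, codes for a protein found only in mitochondrial ribosomes and had the smallest unadjusted *P* of the family. It was at 7.65, 12.3, 8.67 and 7.18 CPM in LWT livers 1 to 4 and at 15.9, 9.60, 19.3 and 22.2 CPM in LΔRbfox2 livers 1 to 4. LΔRbfox2 liver 2 fell below LWT liver 2, and the other LΔRbfox2 livers were above all LWT livers. This gave a log2 fold change of 0.90 and a standard error of 0.29 (edgeR, unadjusted *P* = 0.0087, adjusted *P* = 0.504).

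*Mrpl41*, another protein without a bacterial relative, is encoded on the minus strand of chromosome 2 from 24974117 to 24975098 and had the largest log2 fold change of the 77 genes. Its level was 9.90, 16.3, 9.80 and 7.53 CPM in the LWT livers and 21.5, 10.6, 25.6 and 35.9 CPM in the LΔRbfox2 livers, in the order of their numbers. Again only LΔRbfox2 liver 2 lay within the LWT range. This amounted to a log2 fold change of 1.1 (standard error 0.37; edgeR, unadjusted *P* = 0.011, adjusted *P* = 0.504).

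*Mrpl32* and *Mrpl33* code for small large-subunit proteins with bacterial counterparts. *Mrpl32*, whose precursor must be cut by a protease inside mitochondria before it joins the ribosome, was at 8.65, 14.4, 11.4 and 6.84 CPM in LWT livers and 19.3, 10.8, 23.6 and 32.0 CPM in LΔRbfox2 livers. *Mrpl33* was at 9.04, 15, 8.11 and 6.91 CPM in LWT livers and 18.6, 9.85, 20 and 34.5 CPM in LΔRbfox2 livers. In both, LΔRbfox2 liver 4 had the highest value and LΔRbfox2 liver 2 lay within the LWT range. Their log2 fold changes were 1.05 (standard error 0.35) and 1.08 (standard error 0.37), with adjusted *P* of 0.504 by edgeR for each. *Mrpl33* shares 261 exon bases on the same strand with the gene model *Gm43809*, so its counts are uncertain.

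*Mrpl13* and *Mrpl42* completed the 6 members with the smallest unadjusted *P*. *Mrpl13*, a conserved protein of the large subunit, was at 18.2, 31.0, 18.9 and 15.5 CPM in LWT livers and at 36.1, 20.8, 49.3 and 57.3 CPM in LΔRbfox2 livers. *Mrpl42*, a protein specific to mitochondria, was at 16.7, 29.1, 22.5 and 18.3 CPM in LWT livers and at 31.5, 23.2, 46.4 and 47.8 CPM in LΔRbfox2 livers. LΔRbfox2 liver 2 was again the one inside the LWT range. The log2 fold changes were 0.97 (standard error 0.33) and 0.78 (standard error 0.27), and the adjusted *P* was 0.504 by edgeR for both.

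*Mrpl12* and *Mrpl10* form the stalk of the large subunit, where translation factors dock, and *Mrpl12* is also known to bind the mitochondrial RNA polymerase. *Mrpl12* was at 51.6, 94.7, 62.2 and 48.4 CPM in LWT livers and at 122, 58.5, 115 and 144 CPM in LΔRbfox2 livers. *Mrpl10* was at 22.9, 36.2, 27.8 and 23.1 CPM in LWT livers and at 28.6, 23.7, 39.6 and 38.5 CPM in LΔRbfox2 livers. In both genes LWT liver 2 was high and LΔRbfox2 liver 2 low for its genotype. The log2 fold change was 0.77 (standard error 0.31, adjusted *P* = 0.504 by edgeR) for *Mrpl12* and 0.24 (standard error 0.22, adjusted *P* = 0.648 by edgeR) for *Mrpl10*. The difference between these 2 fold changes was not tested, and that of *Mrpl10* turned sign with gene length or transcript length correction.

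*Mrpl45*, which anchors the mitoribosome at the inner membrane, had a log2 fold change of 0.20 (standard error 0.18), with 11.2 to 16.0 CPM in LWT livers and 13.8 to 18.7 CPM in LΔRbfox2 livers. *Mrpl58*, a large-subunit protein that also frees stalled ribosomes by cutting peptidyl-tRNA, had a log2 fold change of 0.61 (standard error 0.29), with 10.6 to 20 CPM in LWT livers and 13.0 to 29.3 CPM in LΔRbfox2 livers. Their adjusted *P* was 0.638 and 0.508 by edgeR. *Mrps30* and *Mrps18a* carry small-subunit names, but their proteins sit in the large subunit. Their log2 fold changes were 0.39 (standard error 0.18) and 0.54 (standard error 0.23), at adjusted *P* of 0.504 by edgeR each.

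At the low end was *Mrpl37*, a large-subunit protein specific to mitochondria. It was at 19.8, 19.7, 17.4 and 18.3 CPM in LWT livers and at 17.4, 18, 19.0 and 18.1 CPM in LΔRbfox2 livers. No liver stood apart, and the fitted value was −0.055 on the log2 scale, standard error 0.14 (adjusted *P* = 0.869 by edgeR). The livers that were lowest for most members, LWT livers 1 and 4, were here in the upper and middle part of the range.

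In the small subunit, 24 of 26 genes had a log2 fold change above 0, with a median of 0.55. At an unadjusted *P* under 0.05, 7 (26.9%) were higher, against 7.95% of all genes. The 2 genes below 0 were *Mrps5* and *Mrps27*. *Mrps5*, a conserved protein near the mRNA entry of the ribosome, was at 17.4, 20.6, 20.1 and 18.2 CPM in LWT livers and at 21.0, 20.5, 17.8 and 15.1 CPM in LΔRbfox2 livers. LΔRbfox2 liver 4, the highest liver for most members, was the lowest for *Mrps5*. Its log2 fold change came to −0.036, standard error 0.16 (adjusted *P* = 0.928 by edgeR).

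*Mrps27*, a pentatricopeptide repeat protein of the small subunit, was at 11.8, 14.3, 13.5 and 11.9 CPM in LWT livers and at 11.3, 10.6, 15 and 14.5 CPM in LΔRbfox2 livers. Its log2 fold change came to −0.0024, standard error 0.18 (adjusted *P* = 0.995 by edgeR). The signs of *Mrps5* and *Mrps27*, like that of *Mrpl37*, turned under some alternatives, with values near 0 in each. *Mrps2*, whose livers also did not follow the family, had a log2 fold change of 0.15 and 25.7 CPM in LΔRbfox2 liver 2, its highest value. *Mrps2* and *Mrpl4* were singled out after their correlations were seen.

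The 3 paralogues *Mrps18a*, *Mrps18b* and *Mrps18c* descend from a single bacterial protein and occupy different places in the mitoribosome. *Mrps18c* was at 7.52, 16.0, 11.1 and 6.49 CPM in LWT livers and at 16.2, 8.32, 21.0 and 27.6 CPM in LΔRbfox2 livers. *Mrps18a* was at 12.1, 17.5, 14.1 and 11.9 CPM in LWT livers and at 18.1, 13.9, 21.6 and 27.3 CPM in LΔRbfox2 livers. *Mrps18b* was at 19.5, 25.6, 25 and 20.7 CPM in LWT livers and at 23.7, 25.3, 27.9 and 28.3 CPM in LΔRbfox2 livers. The log2 fold change was 0.83 (standard error 0.39) for *Mrps18c* and 0.21 (standard error 0.16) for *Mrps18b*, with adjusted *P* of 0.508 and 0.591 by edgeR. The sign of *Mrps18b* turned with transcript length correction. The genotypes overlapped in all 3, and *Mrps18c* shares 250 exon bases on the same strand with the gene model *Gm43511*.

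*Mrps36* has a ribosomal name, but its protein is a component of the alpha-ketoglutarate dehydrogenase complex of the citric acid cycle. It was at 4.34, 7.15, 5.10 and 4.21 CPM in LWT livers and at 7.45, 4.81, 7.74 and 11 CPM in LΔRbfox2 livers. Its log2 fold change came to 0.57, standard error 0.28 (adjusted *P* = 0.515 by edgeR), and the livers had the same order as for the ribosomal members. The sign of *Mrps36* turned with transcript length correction. Genes listed as conserved from bacteria had a median log2 fold change of 0.57 over 46 tested genes, of which 19 (41.3%) had an unadjusted *P* under 0.05. Genes listed as specific to mitochondria had a median of 0.48 over 30 genes, of which 8 (26.7%) did. That list follows the standard naming of mitoribosome proteins, in which *Mrps18c* carries the bacterial name and *Mrps18a* (1 of the 8) and *Mrps18b* count as mitochondrial in spite of their origin. In the small subunit, 1 of 10 genes so listed did, *Mrps33*, with a log2 fold change of 0.94. That share of 10% is near the 7.95% of all genes that were higher by this rule.

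Levels were compared between genes only per length of exon, as RPKM (CPM divided by the exon length in kilobases). *Mrpl12* had the highest level, with 56.7 ± 23.9 RPKM over all livers (SD, n = 8), from a mean of 41.9 in LWT to 71.6 in LΔRbfox2 livers. It was followed by *Mrpl14* at 34.9 ± 19.0 RPKM, *Mrpl34* at 31.8 ± 10 RPKM and *Mrps21* at 28.0 ± 10.2 RPKM. The ranges of mean ± SD overlapped between neighbours in this order. *Mrpl14* and *Mrps21*, 2 conserved proteins, had log2 fold changes of 0.93 and 0.61, and *Mrpl34*, also conserved, had 0.49. The signs of *Mrps21* and *Mrpl34* turned with transcript length correction. The order of levels after *Mrpl12* depends on the length used. With the length of a typical transcript in place of all annotated exons, *Mrpl12* was still highest at 66.1 RPKM, but it was followed by *Mrpl20* at 62.6 RPKM, *Mrpl30* at 54.4 RPKM, *Mrpl14* at 51.3 RPKM and *Mrps21* at 46.3 RPKM, and *Mrpl34* fell to rank 12 at 31.8 RPKM.

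The lowest detected levels were those of *Mrps25*, at 1.05 ± 0.334 RPKM, and *Mrpl19*, at 1.43 ± 0.316 RPKM. Both share exon sequence with a gene on the opposite strand, with 4590 bases shared with *Nr2c2* for *Mrps25* and 1962 bases shared with *Gcfc2* for *Mrpl19*, so their values depend on how strand was used in counting. *Mrpl53* had 0 counts in all 8 livers, where 3 counts correspond to between 0.0468 and 0.0929 CPM. On the same strand, 695 of its exon bases are also annotated to *Gm42688*, and the part of this overlap in the 0 counts was not tested.

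Mitochondrial ribosomal proteins are short, with a median coding length of 588 bases against 1392 bases over the 12143 tested genes with one annotated. Within the family, genes of shorter coding length had the higher fold changes (Spearman's rho of −0.45 over 77 genes), and the same held for all genes (rho of −0.53 over 12143 genes). With transcript length rho was −0.31 for the members and −0.48 for all genes, and with the length of all annotated exons it was −0.07 for the members and −0.39 over 13806 genes. These are descriptions across genes, which are not independent replicates. The 25 members with coding lengths of 195 to 480 bases had a median log2 fold change of 0.61, where the 910 other genes of that span had 0.54. For the 27 members of 498 to 756 bases the median was 0.59, against 0.26 for 1393 other genes. For the 25 members of 762 to 1326 bases it was 0.30, against 0.06 for 3240 other genes. In the same order, 12 of 25, 9 of 27 and 6 of 25 members were higher at an unadjusted *P* under 0.05 by edgeR. The shares of the other genes were 33.3%, 14.5% and 5.68%.

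Length also separated the livers themselves. The deviation of all genes from their means was related to transcript length with rho of 0.50, −0.43, 0.20 and 0.48 in LWT livers 1 to 4 and −0.17, 0.45, −0.55 and −0.44 in LΔRbfox2 livers 1 to 4. The 4 livers with a negative value were the 4 in which the members were high. After a correction of each library for transcript length, chosen after seeing the data, the mean log2 CPM of the members was 3.89, 4.24, 4.05 and 3.85 in LWT livers and 4.23, 4.01, 4.36 and 4.44 in LΔRbfox2 livers. The order of the livers was nearly the same, LWT liver 2 was still level with LΔRbfox2 liver 1, and the difference between genotypes became 0.26. With that correction the median log2 fold change of the members was 0.21, 60 of 77 were above 0, and 18 were higher at an unadjusted *P* under 0.05, where 6.13% of all genes were. With a correction for the length of all annotated exons the median was 0.39 and 68 were above 0, and with GC content corrected as well it was 0.36 and 75 were above 0.

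**Figure D3:**
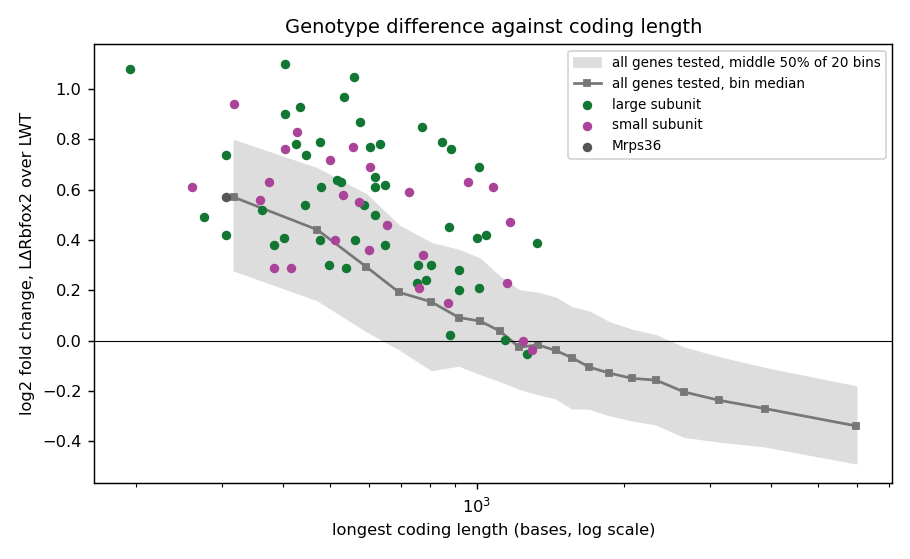
Log2 fold change of LΔRbfox2 over LWT (y axis) against the longest coding length in bases (x axis, log scale) for the 77 tested members, coloured by subunit, over the median and middle 50% of all tested genes in 20 bins of length. Members and other genes both fall with length, and the members of 498 to 756 bases, with a median of 0.59, lie above the 0.26 of the other genes of that span.

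The number of members at an unadjusted *P* under 0.05 depended on single livers. It was 58 without LΔRbfox2 liver 2 and 56 without LWT liver 2, where the share of all genes higher by the same rule was 16.7% and 13.5%. It was 6, 10 and 7 without LWT livers 1, 3 and 4 and 12, 6 and 5 without LΔRbfox2 livers 1, 3 and 4, where the share of all genes was between 1.97% and 5.68%. The share over all genes thus moved in the same direction as the count of members. The median log2 fold change stayed between 0.39 and 0.75 in these fits, and 0 members passed the adjusted threshold in any of them.

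The members were set beside 3 gene groups of related function. Cytosolic ribosomal protein genes, which build the ribosome of the cytosol, had a median log2 fold change of 0.85. Of 87, 61 (70.1%) had an unadjusted *P* under 0.05 with LΔRbfox2 higher, against 7.95% of all genes. The mean log2 CPM of this group was 6.11, 6.92, 6.40 and 5.99 in LWT livers and 7.27, 6.21, 7.26 and 7.70 in LΔRbfox2 livers. Nuclear genes for oxidative phosphorylation had a median of 0.64, with 41 of 79 (51.9%) higher by the same rule. Their means were 5.67, 6.44, 6.01 and 5.61 in LWT livers and 6.56, 5.79, 6.72 and 6.91 in LΔRbfox2 livers. In both groups, as in the members, LWT liver 2 was high and LΔRbfox2 liver 2 low for its genotype. After the transcript length correction, the difference in mean log2 CPM between genotypes was 0.27 for the cytosolic ribosomal proteins (0.75 before) and 0.11 for oxidative phosphorylation (0.57 before), beside 0.26 for the members (0.51 before).

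The mRNAs that the mitoribosome translates had another order. The 13 mitochondrially encoded mRNAs had a mean log2 CPM of 10.95, 10.80, 10.95 and 10.95 in LWT livers and of 11.01, 11.23, 11.33 and 11.35 in LΔRbfox2 livers. These means did not overlap, and LΔRbfox2 liver 2 was high here while it was low for the members. The median log2 fold change was 0.28, and none of these mRNAs passed the adjusted threshold by edgeR. At an unadjusted *P* under 0.05, 3 of 13 (23.1%) were higher, against 7.95% of all genes. The livers of 4 of the 13 mRNAs separated with LΔRbfox2 higher, where 1.05% of all genes did.

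**Figure D4:**
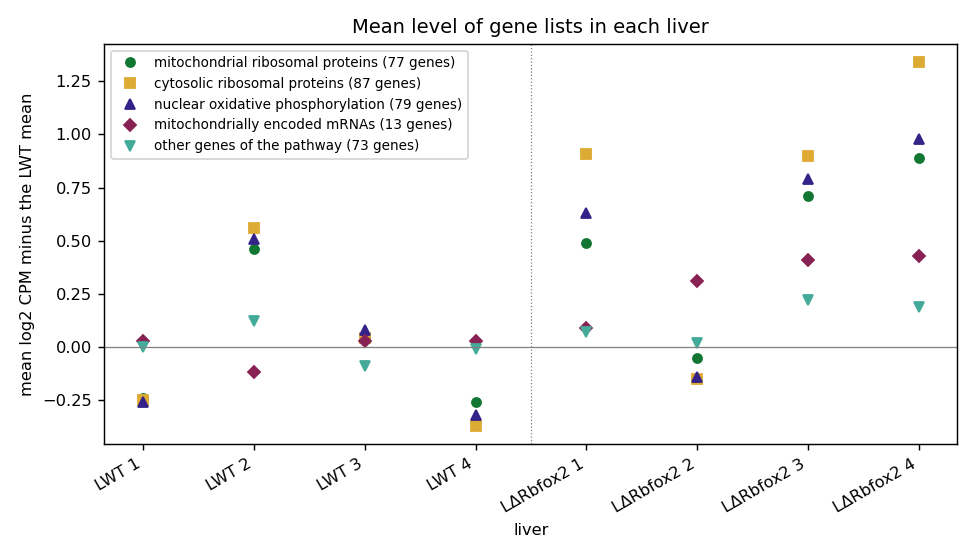
Mean log2 CPM of 5 gene groups in each of the 8 livers (x axis), each minus its mean over the 4 LWT livers (y axis). The mitochondrial ribosomal proteins, cytosolic ribosomal proteins and nuclear oxidative phosphorylation genes share the dip in LΔRbfox2 liver 2 and the high value in LWT liver 2, whereas the mitochondrially encoded mRNAs do not.

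Other genes that serve or regulate mitochondrial translation had smaller differences. They are also longer, with a median length of all annotated exons of 4279 bases against 2533 for the members. Over all genes the log2 fold change fell with length, and these genes were not compared with others of matched length. Over 73 genes of the pathway in 6 lists, the median log2 fold change was 0.14. At an unadjusted *P* under 0.05, 7 (9.59%) were higher and 1 lower, and none passed the adjusted threshold by edgeR. This is near the share of all genes tested, of which 7.95% were higher and 1.83% lower. Mitoribosome proteins that do not carry an Mrp name had a median of 0.44 over 5 genes. *Chchd1* of the small subunit was at 11.2, 19.3, 10.3 and 7.53 CPM in LWT livers and at 23.9, 10.2, 26.6 and 45.5 CPM in LΔRbfox2 livers, a log2 fold change of 1.13 (standard error 0.44, adjusted *P* = 0.504 by edgeR). *Dap3*, a GTP-binding protein of the small subunit that is longer than most members, had a log2 fold change of −0.09.

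Factors that assemble the mitoribosome or modify its RNA had a median log2 fold change of 0.23 over 23 genes. Against 7.95% of all genes, 3 of these (13%) were higher at an unadjusted *P* under 0.05. Among them *Fastkd2*, an RNA-binding protein needed for the large subunit, was at 7.55 to 12.5 CPM in LWT livers and 9.68 to 19.7 CPM in LΔRbfox2 livers, with a log2 fold change of 0.69 (standard error 0.26, adjusted *P* = 0.504 by edgeR). Mitochondrial translation factors had a median of 0.10 over 15 genes. *Slirp*, which stabilizes mitochondrial mRNAs together with LRPPRC, had a log2 fold change of 0.78, while *Lrpprc* had −0.18 and the elongation factor *Tufm* −0.15.

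Mitochondrial aminoacyl-tRNA synthetases charge the tRNAs and are longer still, with a median length of all annotated exons of 5460 bases. Their median log2 fold change was −0.13 over 17 genes. The only one with an unadjusted *P* under 0.05 was *Lars2*, the leucine enzyme. It was at 2700, 986, 439 and 1230 CPM in LWT livers and at 664, 623, 795 and 507 CPM in LΔRbfox2 livers, a log2 fold change of −1.05 (standard error 0.45, adjusted *P* = 0.504 by edgeR). LWT liver 1 was far above the others, and the genotypes overlapped. Its mean level of 89.5 RPKM over all livers was far from that of the next highest enzyme, *Iars2*, at 4.47 RPKM. Whether all of these reads came from the *Lars2* mRNA was not tested, so its counts are uncertain. Without LWT liver 1 the log2 fold change of *Lars2* was −0.47.

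Genes of mitochondrial transcription had a median log2 fold change of 0.29 over 6 genes. *Tefm*, the elongation factor of the mitochondrial RNA polymerase, was at 0.80 (standard error 0.33), *Tfam*, which packages mitochondrial DNA and starts its transcription, at 0.32, and the polymerase *Polrmt* at −0.28. The adjusted *P* of *Tefm* was 0.504 by edgeR. Regulators known to act on nuclear genes of mitochondria had a median of −0.09 over 7 genes. Values were −0.088 for *Nrf1*, −0.053 for *Gabpa*, −0.15 for *Ppargc1a* and −0.6 for *Ppargc1b*, and 0.28 for *Yy1* and 0.22 for *Esrra*. *Myc* was at 7.37, 3.11, 2.18 and 1.68 CPM in LWT livers and at 1.87, 2.40, 2.36 and 1.76 CPM in LΔRbfox2 livers, a log2 fold change of −0.77 (adjusted *P* = 0.533 by edgeR) that came with 1 high liver, LWT liver 1. Without that liver it was −0.17.

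Markers of other cells lay on both sides of 0. The erythroid genes *Hba-a1* and *Hbb-bt*, which can share reads with near-identical globin genes, had log2 fold changes of 0.68 and 1.27. Both had an unadjusted *P* under 0.05 by edgeR (2 of 2), and both are short, with coding lengths of 426 and 441 bases. Of non-member genes with 195 to 480 coding bases, 33.3% were higher by this rule, with a median of 0.54. The erythroid genes summed to 154 to 303 CPM in LWT livers and 263 to 605 CPM in LΔRbfox2 livers, and LΔRbfox2 livers 3 and 4 were highest. All 4 Kupffer cell markers had a log2 fold change below 0, with a median of −0.34. Of these, 1 of 4 (*Clec4f*) was lower at an unadjusted *P* under 0.05, as were 1.83% of all genes. The livers of *Clec4f* separated with LΔRbfox2 lower, as did 1.23% of all genes. Those of *Hba-a1* separated with LΔRbfox2 higher, as did 1.05% of all genes. Kupffer cell markers summed to 51.3 to 88.9 CPM in LWT and 29.2 to 59.6 CPM in LΔRbfox2 livers. Medians were −0.12 over 4 sinusoidal endothelial, −0.08 over 4 stellate cell and 0.37 over 3 cholangiocyte markers, with 0 at an unadjusted *P* under 0.05. The only tested neutrophil marker, *S100a9*, had 0.52 and the only tested adipocyte marker, *Cfd*, −1.33. They reached at most 0.557 and 2.11 CPM in any liver, and the genotypes overlapped in both. The 4 lymphocyte markers summed to at most 1.23 CPM in any liver and none could be tested. The part of these cells in the levels of the members was not tested.

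The members lie on 17 chromosomes, with 11 of them on chromosome 11. Of the 78 genes, 33 (42.3%) start within 1000 bases of a protein-coding gene on the opposite strand that points the other way, against 16.2% of 12140 tested protein-coding genes. The neighbours in these divergent pairs lay on both sides of 0. Of 27 tested neighbours outside the family, 11 (40.7%) had a log2 fold change above 0, against 48.4% of all genes tested. Their median was −0.15. *Mrpl44* had a log2 fold change of 0.41 and its neighbour *Wdfy1* −1.26 (unadjusted *P* = 0.0033 by edgeR). *Mrpl14* had 0.93 and *Tmem63b* −0.35, and *Mrps18c* had 0.83 and the helicase gene *Helq* −0.15. In the other direction, *Mrpl41* had 1.1 and *Pnpla7* 0.57 (unadjusted *P* = 0.02 by edgeR), and *Mrpl32* had 1.05 and *Psma2* 0.5.

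Neighbours that themselves serve mitochondria or translation also lay on both sides of 0, and none passed the adjusted threshold by edgeR. *Mrpl36* stood beside *Ndufs6*, a complex I subunit, with log2 fold changes of 0.42 and 0.82, and *Mrpl49* beside *Fau*, a cytosolic ribosomal protein gene, with 0.30 and 0.96. *Mrps12* had 0.29 and *Sars2*, the mitochondrial seryl-tRNA synthetase, −0.30, and *Mrpl43* had 0.40 and *Twnk*, the mitochondrial DNA helicase, −0.21. *Mrpl46* and *Mrps11* form a divergent pair of 2 members on chromosome 7 and had 0.79 and 0.55. Their exons share 173 bases on opposite strands, so reads in the overlap cannot be assigned where strand was not used. In all, 28 members had exon overlap with a gene on the opposite strand and 8 with a gene on the same strand.

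**Figure D5:**
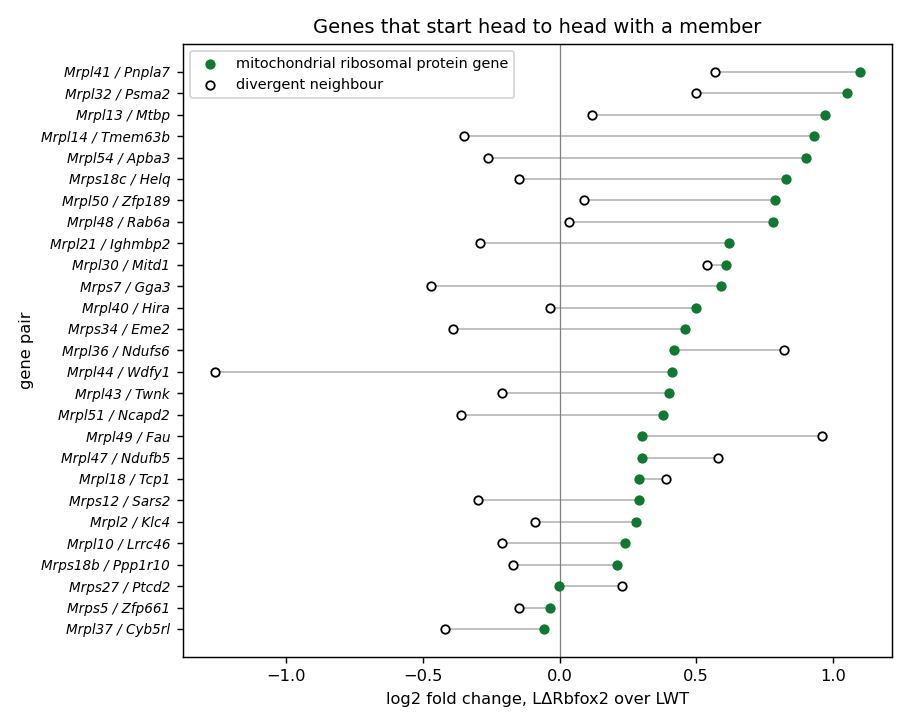
Log2 fold change of LΔRbfox2 over LWT (x axis) for members that start head to head with another tested protein-coding gene (filled points) and for that neighbour (open points), 1 pair per line on the y axis. Of the 27 neighbours 11 lie above 0, and *Wdfy1* at −1.26 is the farthest below.

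Promoters are shown for the 3 members with the largest and the 3 with the lowest log2 fold change, and for *Mrpl12*, the member with the highest level, since NRF1, ETS-family factors such as GABPA, and YY1 are known regulators of nuclear genes for mitochondria. RefSeq promoters of GRCm38.p6, which span 250 bases before to 50 bases after the start, were matched for 69 of the 78 members. *Mrpl41*, *Mrpl33* and *Mrpl32* had log2 fold changes of 1.1, 1.08 and 1.05, *Mrpl12* had 0.77, and *Mrps27*, *Mrps5* and *Mrpl37* lay near 0. Capitals mark GCGC and TGCGC with 1 free base between them (NRF1), CCGGAAG (ETS family) or AAGATGGCG (YY1), each read on either strand. Each sequence runs 5′ to 3′ on the strand of its gene.
Mrpl41: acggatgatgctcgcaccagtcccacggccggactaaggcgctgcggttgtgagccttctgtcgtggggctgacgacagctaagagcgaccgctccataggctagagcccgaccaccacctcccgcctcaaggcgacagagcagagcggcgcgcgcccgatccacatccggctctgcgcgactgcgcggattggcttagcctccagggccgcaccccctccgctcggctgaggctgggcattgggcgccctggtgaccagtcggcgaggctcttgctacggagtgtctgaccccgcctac
Mrpl33: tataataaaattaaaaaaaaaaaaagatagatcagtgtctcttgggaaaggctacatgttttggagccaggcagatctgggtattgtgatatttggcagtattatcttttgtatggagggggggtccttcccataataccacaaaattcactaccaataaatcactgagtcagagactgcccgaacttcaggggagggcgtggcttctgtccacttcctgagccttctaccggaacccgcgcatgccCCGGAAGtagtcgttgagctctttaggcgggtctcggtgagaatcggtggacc
Mrpl32: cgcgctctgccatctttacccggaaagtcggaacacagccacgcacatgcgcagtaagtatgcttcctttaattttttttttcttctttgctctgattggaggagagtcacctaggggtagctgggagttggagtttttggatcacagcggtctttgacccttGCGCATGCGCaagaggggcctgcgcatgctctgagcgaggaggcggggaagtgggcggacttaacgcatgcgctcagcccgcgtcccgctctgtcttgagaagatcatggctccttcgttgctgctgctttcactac
Mrpl12: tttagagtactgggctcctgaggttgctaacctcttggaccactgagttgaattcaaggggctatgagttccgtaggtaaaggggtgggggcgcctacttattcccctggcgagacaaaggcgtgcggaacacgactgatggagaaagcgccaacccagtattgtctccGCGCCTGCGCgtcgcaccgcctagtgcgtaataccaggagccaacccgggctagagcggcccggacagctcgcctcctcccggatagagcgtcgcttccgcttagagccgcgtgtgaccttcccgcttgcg
Mrps27: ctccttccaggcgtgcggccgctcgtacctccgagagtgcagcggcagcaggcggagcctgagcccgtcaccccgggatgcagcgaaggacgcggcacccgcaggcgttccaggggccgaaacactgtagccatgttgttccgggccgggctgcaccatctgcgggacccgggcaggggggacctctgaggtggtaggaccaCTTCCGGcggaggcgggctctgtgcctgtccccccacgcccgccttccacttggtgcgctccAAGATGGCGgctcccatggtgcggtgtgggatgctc
Mrps5: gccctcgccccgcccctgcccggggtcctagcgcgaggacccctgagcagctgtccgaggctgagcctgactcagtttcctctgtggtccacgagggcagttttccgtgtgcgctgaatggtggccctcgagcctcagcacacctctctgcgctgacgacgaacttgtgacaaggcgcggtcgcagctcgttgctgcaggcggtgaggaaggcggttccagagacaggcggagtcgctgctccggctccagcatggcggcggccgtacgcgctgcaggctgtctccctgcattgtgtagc
Mrpl37: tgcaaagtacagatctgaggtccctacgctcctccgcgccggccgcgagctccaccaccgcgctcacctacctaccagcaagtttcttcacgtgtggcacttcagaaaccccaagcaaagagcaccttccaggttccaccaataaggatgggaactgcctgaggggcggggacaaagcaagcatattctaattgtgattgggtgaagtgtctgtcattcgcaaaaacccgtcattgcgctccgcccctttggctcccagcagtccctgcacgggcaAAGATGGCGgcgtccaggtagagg

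The windows were chr2:24975049-24975348, minus strand (*Mrpl41*); chr5:31613701-31614000, plus strand (*Mrpl33*); chr13:14612988-14613287, minus strand (*Mrpl32*); chr11:120484387-120484686, plus strand (*Mrpl12*); chr13:99344536-99344835, plus strand (*Mrps27*); chr2:127587176-127587475, plus strand (*Mrps5*) and chr4:107066817-107067116, minus strand (*Mrpl37*). The *Mrpl32* and *Mrpl12* windows hold the NRF1 letters, *Mrpl33* the ETS letters, and *Mrpl37* the YY1 letters just after the start. *Mrps27* holds both ETS and YY1 letters. *Mrpl41*, with the largest log2 fold change of the family, and *Mrps5*, at −0.036, hold none of the 3.

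Over the family, the NRF1 letters were in a promoter of 18.8% of the 69 members, against 7.2% of 17492 protein-coding genes. Those genes were not limited to the ones tested in these livers. The ETS letters were in 37.7% against 12.9%, and the YY1 letters in 11.6% against 2.1%. GC boxes (GGGCGG) were as frequent as elsewhere, at 49.3% and 49.2%, and the TATA letters (TATAAA) were in 7.2% against 14.8%. E-box letters (CACGTG) were in 7.2% against 8.9%. The median log2 fold change of members was 0.61 with and 0.54 without the NRF1 letters, 0.58 and 0.47 for the ETS letters, and 0.48 and 0.55 for the YY1 letters. In all, 41 of the 69 members held at least 1 of these 3 in a promoter, and the matches describe letters and not binding.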

How the data were processed

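Per the labels and the methods, poly(A) RNA of 8 livers was sequenced as paired-end reads, aligned to GRCm38 with TopHat2 2.0.11 and assigned to genes with featureCounts. The authors deposited whole-number counts per gene without normalization for 46078 identifiers. The strand, multi-mapping and pair settings of the counting are not given in the sources used here. All columns were matched to livers by name, and 0 were left unmatched.

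Genes were annotated with GENCODE M21 (GRCm38), which matched 45229 identifiers. Members and gene lists were chosen with earlier results of these data known. Counts were tested in R 4.3.3 with edgeR 4.0.16 (filterByExpr with a minimum count of 10 and a minimum total of 15, TMM factors, quasi-likelihood test with genotype as the only term). *P* values were adjusted by Benjamini–Hochberg over 13856 genes at a threshold of 0.05. Standard errors came from limma-voom (limma 3.58.1), and log2 CPM used a prior count of 2. The tests were tried on simulated data first. Genes were named by rule: the 6 members with the smallest *P*, the 4 highest and 3 lowest per length, the 3 farthest below the median, members with unusual places or paralogues, and those of the pathway with the smallest *P* in each list. Any other gene was chosen with its values in view. Libraries of 1 genotype differed beyond sampling noise (chi-square per degree of freedom of 72.5 or more).

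Alternatives were other scalings and filters, DESeq2 1.42.0 and limma-voom, a replicate block, corrections for GC content and gene length (lowess, span 0.3), each liver left out in turn and, added after seeing the data, a correction for transcript length. Standard errors and SDs include differences between livers, whereas the floor given for *Mrpl53* covers counting error only. Figures used matplotlib 3.10.9. Splicing, protein abundance and other diets were not analysed here.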

Additional observations from a re-analysis of the deposited data

Results flagged for a closer look

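Of 80 groups of 4 livers examined for a liver far from the others, 1 stood out, and about 1 in 20 would by chance. In LWT liver 2 the mitochondrially encoded mRNAs averaged 10.8035 on the log2 CPM scale, where the other 3 LWT livers lay between 10.951 and 10.954. The same liver was the highest of its genotype for 74 of the 77 mitochondrial ribosomal protein genes. Without this liver the median log2 fold change of the members was 0.75. The mitochondrially encoded mRNAs were not summarized without it, so its part in their difference between genotypes is not given.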

How the results depend on the processing

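In all 20 alternatives 0 members passed the adjusted threshold and 0 were lower at an unadjusted *P* under 0.05. The median log2 fold change of the members lay between 0.21 (transcript length correction) and 0.75. The 27 members higher at an unadjusted *P* under 0.05 became 6 with a replicate block and 5 with a replicate block and both corrections, while the share over all genes fell from 7.95% to 1.65% and 1.27%. They became 5 to 58 with each liver left out in turn. Other alternatives gave 18 to 33. Same-numbered livers come from different animals, their deviations had a mean correlation of −0.22, and 0 of the 4 numbers correlated best with themselves, so the paired fits share only a number. *Rbfox2* was at −1.82 with DESeq2, now past the threshold. Signs turned for *Mrpl10* (0.24 in the main fit, −0.012 with gene length and −0.036 with transcript length correction) and *Mrpl34* (0.49, −0.021 and −0.12). With transcript length correction they also turned for *Mrps18b* (0.21 to −0.17), *Mrps21* (0.61 to −0.13) and *Mrps36* (0.57 to −0.026). For *Mrpl34*, *Mrps21* and *Mrps36* the move was larger than their standard errors of 0.27, 0.27 and 0.28. *Mrpl37* was at 0.0045 with GC content and gene length corrections and 0.0042 with the block added. *Mrps5* was at 0.057 with gene length, 0.061 with both, 0.071 with the block added and 0.11 with transcript length correction. With single livers left out, *Mrps27* ranged from −0.12 to 0.079 and *Mrps5* from −0.1 to 0.053. The other 561 of 580 values of named genes kept direction and side of the threshold, and the cause of the changes was not tested.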
